A study of Mus musculus with 14 samples.

Results

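The genes described here are 29 genes of cholesterol synthesis, sterol sensing, sterol transport and cholesterol esterification, out of 43432 genes measured by RNA-seq in mouse lung cells. They were chosen by name: 8 act in the mevalonate and isoprenoid steps, 3 in the steps from farnesyl diphosphate to lanosterol, 10 in the steps from lanosterol to cholesterol, 4 in sterol sensing and 4 in the movement or esterification of sterol. The list was drawn up with earlier results of these libraries known, so the calls below describe the genes and support nothing beyond these libraries. The cells came from male 129S1 mice aged 10 to 12 weeks that received bleomycin, a DNA-damaging drug that injures the lung and leads to fibrosis, or water into the trachea. Bleomycin was given at a labelled dose of 3 U/k. Cells bearing both SiglecF and CD11c, the surface pair of alveolar macrophages, were divided in the sorter into low and high for MHC class II (MHCII), the molecule that presents peptides to helper T cells. There were 3 libraries each of MHCII-low and MHCII-high cells 2 weeks after bleomycin, 3 of each 4 weeks after it, and 2 of MHCII-low cells from water-treated controls, labelled as replicates 1 and 3. The titles of the control samples give no time after treatment, and the same controls served for both times. The MHCII-low and MHCII-high cells are called low and high cells below, and the water-treated low cells are the controls. MHCII-high cells of water-treated mice were not analysed here. Nothing in the labels says that libraries of a group came from separate mice or whether mice were pooled, so the p-values measure the spread between these libraries.

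Cholesterol is built from acetyl-CoA. The mevalonate steps make the 5-carbon isoprenoid units, which are joined to farnesyl diphosphate. Farnesyl diphosphate is coupled to squalene, which is oxidised and folded into lanosterol, and lanosterol is demethylated, reduced and isomerised to cholesterol. Transcription of most of these enzymes is driven by SREBP2, a factor held as a precursor in the membrane of the endoplasmic reticulum. SCAP carries SREBP2 to the Golgi apparatus for cleavage when membrane sterol is low, and the INSIG proteins hold SCAP back when sterol is plentiful. Alveolar macrophages take up and break down surfactant, a lipid film that contains cholesterol.

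Promoter sequences are shown for 4 of the genes because SREBP2 is known to act at the promoters of this pathway, often beside the factor NF-Y, whose motif is CCAAT. The RefSeq promoter table (build GRCm38.p6) held 30 promoters for 24 of the 29 genes, each running from 250 bases before the RefSeq start to 50 bases from it. Fdps, Fdft1, Sqle, Stard4 and Npc1 were without an entry. Capitals mark every match to 3 motifs on either strand: TCACNCCAC, the core of a sterol regulatory element, CCAAT, and CACGTG, an E-box. None of these motifs contains another. The Hmgcs1 promoter (chr13:119690101-119690400, forward strand) was the only one of the 30 with TCACNCCAC, 137 bases before the start. The promoters of Insig1 (chr5:28071162-28071461, forward strand), Sc5d (chr9:42264251-42264550, reverse strand) and Cyp51 (chr5:4104648-4104947, reverse strand) are printed since these genes were among those that moved most or in most comparisons.
Hmgcs1: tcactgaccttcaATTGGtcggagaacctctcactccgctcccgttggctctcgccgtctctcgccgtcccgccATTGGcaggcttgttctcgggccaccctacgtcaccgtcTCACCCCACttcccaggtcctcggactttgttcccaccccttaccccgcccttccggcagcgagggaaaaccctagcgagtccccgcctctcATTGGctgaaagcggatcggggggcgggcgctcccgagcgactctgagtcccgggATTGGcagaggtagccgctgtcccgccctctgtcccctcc
Insig1: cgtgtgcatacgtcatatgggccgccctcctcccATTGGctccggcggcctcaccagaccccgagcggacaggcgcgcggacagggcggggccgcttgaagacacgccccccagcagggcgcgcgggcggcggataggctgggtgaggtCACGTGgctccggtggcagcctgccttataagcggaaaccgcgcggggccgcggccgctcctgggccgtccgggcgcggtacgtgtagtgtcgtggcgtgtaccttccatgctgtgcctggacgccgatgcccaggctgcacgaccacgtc
Sc5d: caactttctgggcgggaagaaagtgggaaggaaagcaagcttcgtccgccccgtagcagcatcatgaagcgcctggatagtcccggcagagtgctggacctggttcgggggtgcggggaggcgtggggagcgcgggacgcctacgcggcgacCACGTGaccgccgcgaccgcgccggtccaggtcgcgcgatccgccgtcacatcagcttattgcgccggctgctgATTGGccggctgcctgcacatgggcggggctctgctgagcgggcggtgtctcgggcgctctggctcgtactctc
Cyp51: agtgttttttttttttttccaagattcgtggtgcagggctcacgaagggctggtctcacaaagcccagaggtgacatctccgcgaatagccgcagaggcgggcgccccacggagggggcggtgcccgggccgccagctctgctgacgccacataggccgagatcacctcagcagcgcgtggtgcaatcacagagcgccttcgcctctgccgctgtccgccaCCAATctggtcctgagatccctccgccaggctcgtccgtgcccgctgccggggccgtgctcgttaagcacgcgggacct
TCACNCCAC was found in 3.33% of the 30 promoters of the list and in 1.24% of all 32851 promoters of the table. CCAAT was found in 21 of the 30 promoters (70.0%), against 37.41% of all promoters. Among the 16 promoters of genes that were higher at 2 weeks in the comparison below, 13 held CCAAT, and among the 14 promoters of the other genes 8 did. Some genes have more than 1 promoter, so these promoters are not independent units. By gene, CCAAT was found in 21 of 24 (87.5%), against 41.06% of all genes with a promoter. It was found in 13 of the 13 genes with a promoter that were higher at 2 weeks, and in 8 of the other 11. CACGTG was found in 6 of the 30 promoters (20%), against 7.15% of all promoters. The Scap promoters overlap and hold the same CACGTG, which is counted for each. By gene, it was found in 5 of 24 (20.83%), against 8.09% of all genes with a promoter. A match is a string of letters and does not show that a factor binds there.

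Values are normalized counts, which the authors made by scaling gene counts between libraries. The libraries held 15106415 to 88059628 recovered reads. The fewest reads behind any value of the 29 genes were 45, for Lbr in replicate 3 of the 4-week high cells. Between 3.12% and 28.99% of reads came from the mitochondrial ribosomal RNAs: 21.67% and 24.08% in the controls, 3.42%, 18.32% and 12.71% in 2-week low cells, 24.9%, 22.51% and 26.25% in 2-week high cells, 3.12%, 23.15% and 5.1% in 4-week low cells and 8.12%, 28.99% and 21.13% in 4-week high cells. The summed level of 10 alveolar macrophage markers ranged from 239900 to 439800 normalized counts over all libraries, and none of the 10 was at 0 throughout a group. The markers of the labelled cell type were thus present in every group, at levels that differed between groups as given below. Because these are bulk samples, fewer cells of a type and less RNA per cell cannot be told apart.

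Several of the genes share sequence or exons with a neighbour, and the counting is not stated to use strand. Fdft1 shares 774 exon bases with Ctsb on the opposite strand, 18.31% of the exon bases of Fdft1, and Ctsb read 37563 to 117821 normalized counts. Reads from the shared stretch cannot be assigned to 1 strand, so the level of Fdft1 is uncertain. Acat2 shares 45.89% of its 50-base words with other transcripts, foremost Acat3, and Idi1 shares 21.32%, Fdps 11.74% and Fdft1 10.85% with pseudogenes or overlapping transcripts. Fdps also shares 26.71% of its exon bases with Gm43738 on the same strand. With genes on the opposite strand, Hmgcs1 shares 12.12% of its exon bases (Gm48342), Scap 13.23% (5830462I19Rik) and Idi1 9.22% (Gm48574). Values of these genes depend on how shared reads were counted. The shares of exon bases are of GENCODE exons, which can differ from those behind the deposited counts. Fdft1, Hmgcs1, Ggps1, Srebf2, Npc1 and Npc2 had another span in GENCODE than in the deposited values. Fdps had a deposited exon length of 1241 bases and a longest GENCODE transcript of 2953. The shared stretches may thus lie in part outside the counted exons.

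In low cells 2 weeks after bleomycin, 17 of the 29 genes rose against the controls, by 2.83-fold (Dhcr7) to 8.6-fold (Sc5d), at an adjusted p below 0.05 by limma fitted across all 17390 genes tested. In that comparison 1.48% of all genes tested rose. All 29 differences were above 0, and their median log2 fold change was 1.74 against -0.09 over all genes tested. The risen genes were 5 of 8 in the mevalonate and isoprenoid group, 3 of 3 from farnesyl diphosphate to lanosterol, 6 of 10 from lanosterol to cholesterol, 2 of 4 in sensing and 1 of 4 in transport and esterification. For 26 of the 29 genes, every 2-week low library lay above both controls, which held for 13.7% of all genes tested. With the mitochondrial ribosomal RNA share as a covariate, 17 genes rose again. The limit of this comparison is the 2 controls: without control replicate 3, 12 genes passed, and Mvd, Hsd17b7, Pmvk, Nsdhl and Idi1 did not (adjusted p up to 0.16). Without control replicate 1, 14 passed and Pmvk, Nsdhl and Idi1 did not (up to 0.15), and Idi1 was also lost without 2-week low replicate 1 (0.063) or replicate 3 (0.059).

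Cell type markers differed between the same groups. The summed level of the 10 alveolar macrophage markers was 256500 and 295000 normalized counts in the controls, 363000 to 439800 in 2-week low cells and 319400 to 381100 in 4-week low cells. Chil3 was the largest part of these sums, at 199883.5 and 163234 in the controls and 251120.5 to 303547 in 2-week low cells. It did not pass at 2 weeks (log2 0.62 ± 0.22, adjusted p = 0.21). Of these 10, 1 was called higher at 2 weeks, Car4, a carbonic anhydrase (log2 1.06 ± 0.21, adjusted p = 0.0075), and 0 were called lower. Of the 10 differences 7 were above 0 and 3 below. Ear1, a ribonuclease, was among those below 0 (log2 -0.83 ± 0.25, adjusted p = 0.11). Every 2-week low library of Ear1 was below both controls, as for 21.6% of all genes tested. Car4 was lower at 4 than at 2 weeks (log2 -1.1 ± 0.19, adjusted p = 0.0033), while Ear1 was higher at 4 than at 2 weeks (log2 1.13 ± 0.22, adjusted p = 0.011). The 8 markers of monocyte-derived or interstitial macrophages summed to 1089 and 1765 in the controls, 3581 to 6137 in 2-week low cells and 1176 to 1721 in 4-week low cells. Of these, C1qb, a chain of complement C1q, rose at 2 weeks (log2 5.41 ± 0.79, adjusted p = 0.00031). Itgam, an integrin chain of myeloid cells, rose at 2 weeks as well (log2 1.75 ± 0.34, adjusted p = 0.0056) and was lower at 4 than at 2 weeks (log2 -1.96 ± 0.30, adjusted p = 0.0011). The 6 fibroblast or endothelium markers summed to 403.7 and 633.1 in the controls, 638.5 to 1009 in 2-week low cells and 227.1 to 540.2 in 4-week low cells, and Col1a1, the collagen chain, was lower at 4 than at 2 weeks (log2 -5.51 ± 1.29, adjusted p = 0.042) but did not pass at 2 weeks against control (log2 3.05 ± 1.44, adjusted p = 0.38). The 8 alveolar type 2 cell markers summed to 5321 and 5326 in the controls and 5674 to 7851 in 2-week low cells, and 2 of them rose, Sftpc (log2 3.47 ± 0.59, adjusted p = 0.0017) and Slc34a2 (log2 1.89 ± 0.47, adjusted p = 0.038). The 4 T cell markers summed to 49.1 and 67.8 in the controls and 84.8 to 192.5 in 2-week low cells, and the 4 neutrophil markers to 112.7 and 211.1 and to 148.1 to 392.7, with 0 of the 3 genes tested in each list called. The 4 airway club cell markers were lower in sum, at 2970 to 9697 against 11910 and 24270, and so were the 6 cell cycle genes, at 7088 to 10150.0 against 14780.0 and 16510.0, again with 0 called. None of the markers of these lists was at 0 throughout the controls or the 2-week low cells. The part of these cells in the result was not tested.

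**Figure D1:**
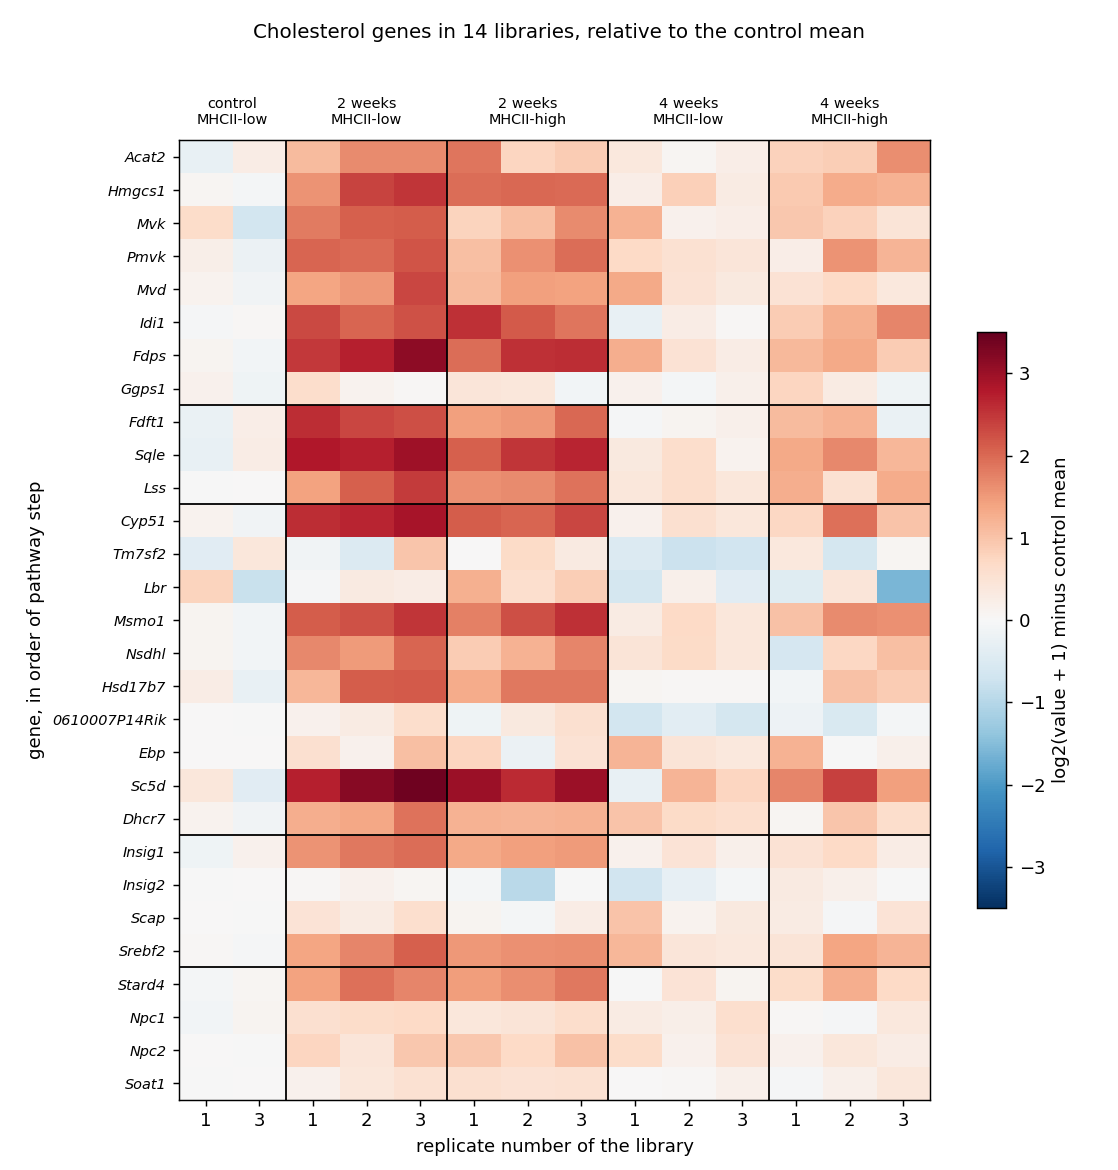
Log2 of each value over the mean of the 2 controls for the 29 genes (lines of the map, grouped by pathway step) in the 14 libraries (columns, grouped by cell and time). The 2-week columns are the strongest, with library medians of 1.39 to 2.03 in low and 1.25 to 1.63 in high cells, against 0.25 to 0.43 in 4-week low and 0.51 to 0.80 in 4-week high cells.

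The mevalonate and isoprenoid genes are taken in pathway order, with values in the order of the replicate numbers. Hmgcs1 (chr13:119690462-119708086, forward strand, build mm10) makes HMG-CoA, the substrate of the step that commits carbon to the pathway. Hmgcs1 read 2332 and 2157 normalized counts in the controls, 6645, 11454 and 12621 in 2-week low cells and 8684, 9026 and 8907 in 2-week high cells. At 4 weeks Hmgcs1 read 2622, 4026 and 2729 in low cells and 4264, 5540.0 and 5173 in high cells. The 2-week low libraries were 4.4-fold the controls in the fit (log2 fold change 2.14 ± 0.23, adjusted p = 7.9e-06), and the lowest of them was above every control and every 4-week library. Pmvk (chr3:89454541-89469013, forward strand) adds the second phosphate to mevalonate. Pmvk read 138 and 105 normalized counts in the controls, 501, 474 and 559 in 2-week low cells and 253, 364 and 466 in 2-week high cells. At 4 weeks Pmvk read 196, 174 and 163 in low cells and 142, 359 and 275 in high cells. Its libraries overlapped between 4-week high and 4-week low cells, while 2-week low cells stood above all other groups, 4.22-fold over control (log2 2.08 ± 0.42, adjusted p = 0.0075). Mvd (chr8:122433601-122443422, reverse strand) removes the carboxyl group to give isopentenyl diphosphate. Mvd read 511 and 435 normalized counts in the controls, 1235, 1349 and 2371 in 2-week low cells and 1008, 1269 and 1248 in 2-week high cells. At 4 weeks Mvd read 1193, 674 and 601 in low cells and 672, 762 and 606 in high cells. Replicate 3 of the 2-week low cells was the highest library, and the group was 3.35-fold the controls (log2 1.74 ± 0.31, adjusted p = 0.0022).

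Idi1 (chr13:8885501-8892451, forward strand) interconverts the pair of 5-carbon isomers, and it had the lowest level per kilobase of exon among the 29 genes in the controls. Idi1 read 59.6 and 63.7 normalized counts in the controls, 311, 256 and 294 in 2-week low cells and 369, 274 and 229 in 2-week high cells. At 4 weeks Idi1 read 51.5, 73.5 and 62.9 in low cells and 114, 148 and 204 in high cells. Control and 4-week low libraries overlapped, and every 2-week library was above both; 2-week low cells were 4.59-fold the controls (log2 2.2 ± 0.47, adjusted p = 0.013). Fdps (chr3:89093588-89101959, reverse strand) joins these units to farnesyl diphosphate. Fdps read 65.4 and 56.8 normalized counts in the controls, 340.1, 406 and 542 in 2-week low cells and 241, 360.4 and 369 in 2-week high cells. At 4 weeks Fdps read 148, 87.3 and 72.5 in low cells and 135, 154 and 114 in high cells. No 2-week value overlapped a control or a 4-week value, and 2-week low cells were 6.82-fold the controls (log2 2.77 ± 0.46, adjusted p = 0.0013). The remaining genes of this group did not pass the test in any comparison. Acat2, which condenses acetyl-CoA, ranged over all libraries from 119 to 525 normalized counts, and its 2-week low difference from control was 1.47 ± 0.42 on the log2 scale (adjusted p = 0.087). Mvk, mevalonate kinase, ranged from 46.5 to 321 and differed by 2.01 ± 0.53 (adjusted p = 0.056). Ggps1, which makes geranylgeranyl diphosphate for protein prenylation on a branch away from sterol, ranged only from 382 to 712. Its 2-week low difference was 0.25 ± 0.32, with a 95% interval of -0.41 to 0.92.

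All 3 genes of the squalene and lanosterol steps rose at 2 weeks. Fdft1 (chr14:63145153-63177793, reverse strand) is squalene synthase, the first step that leads to sterol alone. Fdft1 read 858 and 1200.1 normalized counts in the controls, 6113, 5140.2 and 4884 in 2-week low cells and 2763, 2899.9 and 4056 in 2-week high cells. At 4 weeks Fdft1 read 980.2, 1076 and 1152 in low cells and 2194, 2363 and 863 in high cells. Every 2-week low library exceeded every other library, and the group was 5.27-fold the controls (log2 2.4 ± 0.31, adjusted p = 8.4e-05), while replicate 3 of the 4-week high cells lay at the control level. Sqle (chr15:59315077-59331192, forward strand) is squalene epoxidase, an oxygen-using and rate-limiting step. Sqle read 1116 and 1624 normalized counts in the controls, 9431, 8809 and 10532 in 2-week low cells and 5788, 7666 and 8539 in 2-week high cells. At 4 weeks Sqle read 1692, 2064 and 1455 in low cells and 3397, 4348 and 3000.2 in high cells. The 5 groups were arranged without overlap except for controls and 4-week low cells, and 2-week low cells were 7.1-fold the controls (log2 2.83 ± 0.22, adjusted p = 8.7e-08). Lss (chr10:76531588-76557138, forward strand) folds oxidised squalene into lanosterol. Lss read 843 and 868 normalized counts in the controls, 2264, 3666 and 4679.6 in 2-week low cells and 2612, 2712 and 3221 in 2-week high cells. At 4 weeks Lss read 1133, 1298 and 1130.1 in low cells and 2056, 1247 and 2106 in high cells. Both controls were below every other library, and 2-week low cells were 3.96-fold the controls (log2 1.98 ± 0.27, adjusted p = 0.00012).

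Among the genes from lanosterol to cholesterol, 6 of 10 rose at 2 weeks. Cyp51 (chr5:4081145-4104746, reverse strand) is the cytochrome that removes the first methyl group of lanosterol. Cyp51 read 1543 and 1305 normalized counts in the controls, 8489, 9042 and 10464 in 2-week low cells and 6214, 5808 and 7234 in 2-week high cells. At 4 weeks Cyp51 read 1586, 2079 and 1866 in low cells and 2358, 5449 and 2835 in high cells. The libraries of the 2-week low group were above all others and 6.55-fold the controls (log2 2.71 ± 0.25, adjusted p = 9.1e-07). Cyp51 shares 3.76% of its exon bases with Akap9 on the opposite strand. Msmo1 (chr8:64718139-64733792, reverse strand) oxidises the remaining methyl groups. Msmo1 read 774 and 677 normalized counts in the controls, 3126, 3406 and 4113 in 2-week low cells and 2455, 3469 and 4234 in 2-week high cells. At 4 weeks Msmo1 read 876, 1184 and 946 in low cells and 1488, 2298 and 2185 in high cells. High and low cells overlapped at 2 weeks and did not at 4 weeks, and the 2-week low cells were 4.86-fold the controls (log2 2.28 ± 0.25, adjusted p = 6.6e-06). Nsdhl (chrX:72918557-72958514, forward strand) takes away the carboxyl group that Msmo1 leaves. Nsdhl read 1108 and 953 normalized counts in the controls, 3291, 2912 and 4193 in 2-week low cells and 1905, 2368 and 3393 in 2-week high cells. At 4 weeks Nsdhl read 1409.8, 1649 and 1364 in low cells and 685, 1712 and 2115 in high cells. Replicate 1 of the 4-week high cells was below both controls, and 2-week low cells were 3.33-fold the controls (log2 1.74 ± 0.34, adjusted p = 0.0056). Hsd17b7 (chr1:169949535-169969241, reverse strand) reduces the ketone that this leaves on the ring. Hsd17b7 read 887 and 616 normalized counts in the controls, 1671, 3234 and 3285 in 2-week low cells and 1824, 2661 and 2637 in 2-week high cells. At 4 weeks Hsd17b7 read 779.5, 768 and 763 in low cells and 689, 1506 and 1377 in high cells. Replicate 1 was the lowest in each bleomycin group except 4-week low cells, and 2-week low cells were 3.52-fold the controls (log2 1.82 ± 0.32, adjusted p = 0.0024).

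Sc5d (chr9:42251595-42264256, reverse strand) introduces the C5 double bond late in the pathway, and it varied the most of the 29 genes, 14-fold from the lowest to the highest library. Sc5d read 318 and 181 normalized counts in the controls, 1589, 2198 and 2538 in 2-week low cells and 1935, 1474 and 1919 in 2-week high cells. At 4 weeks Sc5d read 201, 551 and 401 in low cells and 787, 1265 and 655 in high cells. All 2-week libraries were above all 4-week and control libraries, and 2-week low cells were 8.6-fold the controls (log2 3.1 ± 0.37, adjusted p = 2.8e-05). Dhcr7 (chr7:143823145-143848410, forward strand) reduces 7-dehydrocholesterol to cholesterol. Dhcr7 read 2045 and 1745 normalized counts in the controls, 4555, 4782 and 7022 in 2-week low cells and 4360.1, 4294 and 4384 in 2-week high cells. At 4 weeks Dhcr7 read 3754, 2988 and 2826 in low cells and 1989.7, 3728 and 2869 in high cells. High cells at 2 weeks lay within a narrow range just under the low cells, which were 2.83-fold the controls (log2 1.5 ± 0.23, adjusted p = 0.00067). 0610007P14Rik (chr12:85815448-85824550, reverse strand) is the mouse ERG28 gene, whose yeast counterpart tethers the demethylation enzymes. 0610007P14Rik read 1606 and 1591 normalized counts in the controls, 1769.8, 1959 and 2456 in 2-week low cells and 1429, 2034 and 2340.5 in 2-week high cells. At 4 weeks 0610007P14Rik read 1020.5, 1239 and 1036 in low cells and 1417, 1106 and 1537 in high cells. Its difference between 2-week low cells and controls did not pass the test (log2 0.35 ± 0.23, adjusted p = 0.6), and every 4-week library was below both controls.

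The other 3 genes of these steps did not pass the test in any comparison. Tm7sf2 and Lbr, both sterol C14-reductases, ranged from 147 to 489 and from 54.8 to 402 normalized counts. The control libraries of Lbr alone spanned 98.1 to 288. The 2-week low differences from control were 0.12 ± 0.46 (95% interval -0.84 to 1.08) for Tm7sf2 and 0.18 ± 0.57 (-1.0 to 1.36) for Lbr, intervals wide enough to hold a 2-fold change. Tm7sf2 shares 12.08% of its exon bases with Vps51 on the same strand. Ebp, the sterol isomerase, ranged from 281 to 762 and differed by 0.59 ± 0.40 (adjusted p = 0.61).

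In sterol sensing, the factor and its feedback retainer moved and the escort did not pass the test. Srebf2 (chr15:82147266-82205376, forward strand) encodes SREBP2. Srebf2 read 1996 and 1859 normalized counts in the controls, 5016, 6268 and 8291 in 2-week low cells and 5526, 5874 and 5978 in 2-week high cells. At 4 weeks Srebf2 read 4329.8, 2590.2 and 2494 in low cells and 2620.3, 5016 and 4401 in high cells. Both controls were the lowest 2 libraries, and 2-week low cells were 3.32-fold the controls (log2 1.73 ± 0.26, adjusted p = 0.00052). Insig1 (chr5:28071363-28078662, forward strand) encodes the INSIG protein that is itself a target of SREBP2. Insig1 read 1318 and 1616 normalized counts in the controls, 4341, 5201 and 5628 in 2-week low cells and 3652, 3924 and 4076 in 2-week high cells. At 4 weeks Insig1 read 1616, 2049 and 1658 in low cells and 2083, 2380.1 and 1747 in high cells. The 2-week low libraries were above the 2-week high ones and both were above the rest, and 2-week low cells were 3.44-fold the controls (log2 1.78 ± 0.20, adjusted p = 8.5e-06). Insig2, the family member that acts in the same way, ranged from 380.1 to 912 normalized counts and had a 2-week low difference of 0.09 ± 0.29, with a 95% interval of -0.52 to 0.69. Scap ranged from 1034 to 2179, with its highest value in replicate 1 of the 4-week low cells, and differed by 0.45 ± 0.25 (adjusted p = 0.49).

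Of the transport and esterification genes only Stard4 passed the test. Stard4 encodes a soluble carrier that moves cholesterol between membranes. Stard4 read 3117 and 3406 normalized counts in the controls, 8701, 12464 and 10616 in 2-week low cells and 8912, 10133 and 11758 in 2-week high cells. At 4 weeks Stard4 read 3222, 4504 and 3502 in low cells and 5039, 7859 and 5327 in high cells. Every 2-week library was above every control and 4-week library, and 2-week low cells were 3.22-fold the controls (log2 1.69 ± 0.21, adjusted p = 5.6e-05). Npc1 and Npc2, which hand cholesterol out of the lysosome, and Soat1, which esterifies it for storage, were the genes with the highest level per kilobase in the controls. Npc1 ranged from 19191 to 33775 normalized counts, with a 2-week low difference of 0.64 ± 0.17 (adjusted p = 0.064). Npc2 ranged from 5570.0 to 11451 and differed by 0.71 ± 0.19 (adjusted p = 0.055). Soat1 ranged from 14681 to 22571 and differed by 0.36 ± 0.17, with a 95% interval of 0.01 to 0.71. For each of these 3 genes all 2-week libraries, low and high, lay above both controls.

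**Figure D2:**
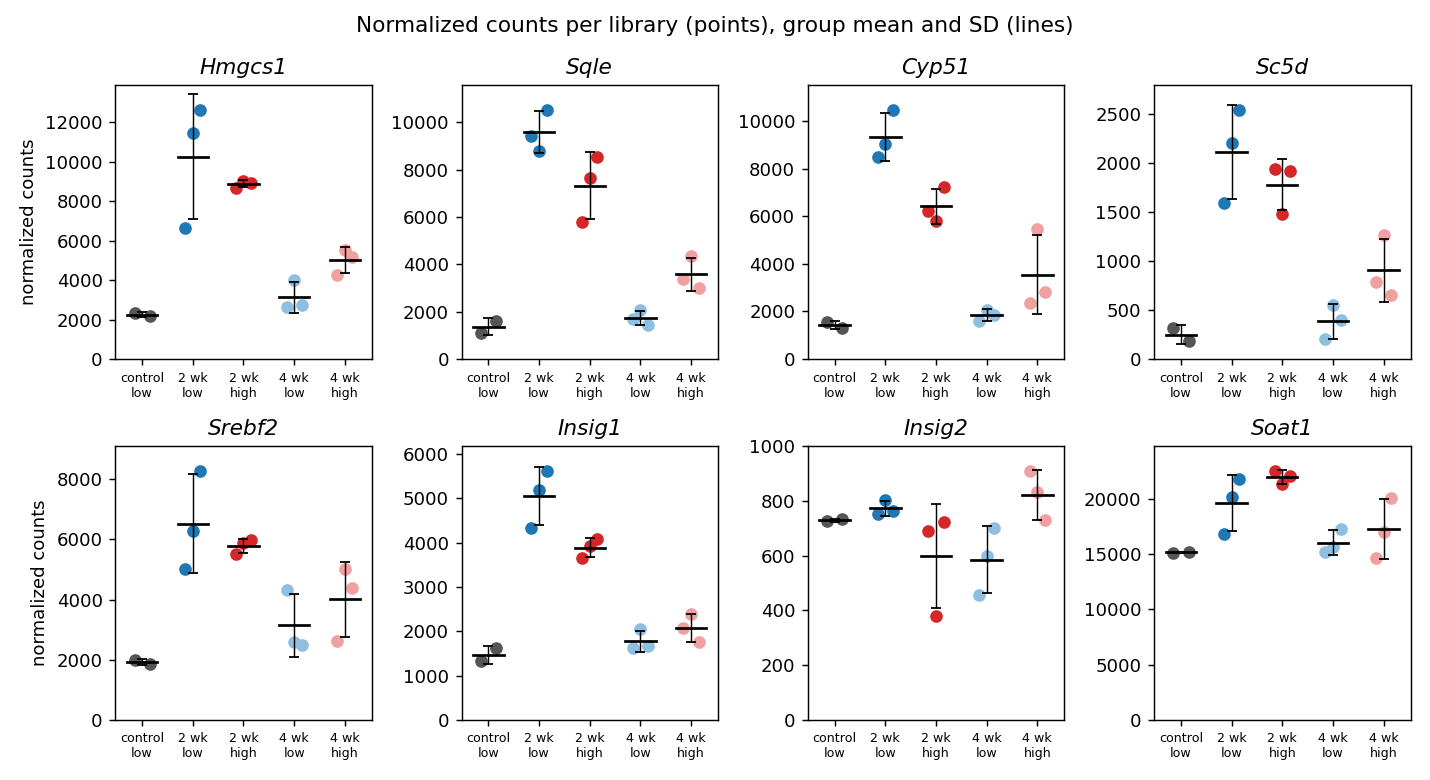
Normalized counts of single genes (vertical axes) in each of the 14 libraries (points) for 8 genes, by group along the horizontal axis, with the group mean as a horizontal line and the SD as an error bar. Sqle lies between 8809 and 10532 in 2-week low cells and between 1455 and 2064 in 4-week low cells, while Soat1 stays between 14681 and 22571 throughout.

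In low cells most of the genes that rose at 2 weeks were lower again at 4 weeks. Of the 29 genes, 14 were lower in low cells at 4 than at 2 weeks by limma at an adjusted p below 0.05, against 0.748% of all genes tested. Sc5d was 5.83-fold lower (log2 -2.54 ± 0.33, adjusted p = 0.00013), Sqle 5.56-fold (log2 -2.48 ± 0.20, adjusted p = 3.2e-07), Cyp51 5.07-fold (log2 -2.34 ± 0.23, adjusted p = 5.5e-06) and Fdft1 5.02-fold (log2 -2.33 ± 0.28, adjusted p = 5.5e-05). The other 10 were Idi1, Fdps, Msmo1, Hsd17b7, Hmgcs1, Insig1, Lss, Stard4, Srebf2 and 0610007P14Rik, with log2 fold changes from -2.19 (Idi1) to -0.90 (0610007P14Rik). By step, 3 of 8 mevalonate and isoprenoid genes, 3 of 3 squalene and lanosterol genes, 5 of 10 genes from lanosterol to cholesterol, 2 of 4 sensing genes and 1 of 4 transport genes fell. The median of the 29 was -1.24 against 0.03 over all genes tested. For 21 genes every 4-week low library was below every 2-week low library, as for 6.76% of all genes tested, and for no gene were all of them above. Among all genes tested 7.22% had all 4-week low libraries above, and 0.109% were called higher. This comparison and the one with the controls share the 2-week low libraries, so they are not independent. Between 10 and 14 genes passed when 1 library was left out. The fewest, 10, passed without 2-week low replicate 3, which was the highest of all libraries for 17 of the 29 genes. The call of 0610007P14Rik was lost without any 1 of the 6 libraries, those of Srebf2 and Fdps without replicate 2 or 3 of either group, and that of Idi1 without 2-week low replicate 1 or 3 (adjusted p up to 0.24).

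Against the controls, 0 of the 29 genes passed in 4-week low cells by limma, with 5 at an unadjusted p below 0.05 and 0 by edgeR or DESeq2. In that comparison 0.0345% of all genes tested rose and 0.0115% fell. The median log2 fold change of the 29 was 0.37 against -0.06 over all genes. The 5 genes were Dhcr7 (0.74 ± 0.23, adjusted p = 0.55), Mvd (0.73 ± 0.31, adjusted p = 0.76), Srebf2 (0.66 ± 0.26, adjusted p = 0.72) and Npc2 (0.43 ± 0.19, adjusted p = 0.76), above 0, and 0610007P14Rik (-0.55 ± 0.23, adjusted p = 0.76), below 0. The libraries themselves still lay apart for 15 genes, each 4-week low value being above both controls, as for 11.4% of all genes tested. For Tm7sf2, 0610007P14Rik and Insig2 each was below both, as for 16% of all genes. Of the 29 differences 25 were above 0, and over all 17390 genes tested 7744 were. The 95% interval of this difference was -0.11 to 0.81 on the log2 scale for Sqle and -0.04 to 0.94 for Hmgcs1. Both intervals hold no change as well as a rise smaller than that at 2 weeks.

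In high cells 4 genes were lower at 4 than at 2 weeks, against 0.759% of all genes tested: Sqle (log2 -1.03 ± 0.20, adjusted p = 0.012), Insig1 (log2 -0.92 ± 0.18, adjusted p = 0.012), Cyp51 (log2 -0.95 ± 0.23, adjusted p = 0.045) and Stard4 (log2 -0.78 ± 0.19, adjusted p = 0.049). An unadjusted p below 0.05 was found for 21 genes, and the median of the 29 was -0.69 against -0.07 over all genes. For 19 genes every 4-week high library was below every 2-week high library, as for 9.06% of all genes tested, and for Insig2 every 4-week library was above, as for 5.9%. None of the 4 calls held in every refit that left out 1 library: 0 genes passed without 2-week high replicate 2 or replicate 3, with adjusted p up to 0.16, and 7 passed without 4-week high replicate 2. Without 2-week high replicate 1 or 4-week high replicate 1, 2 genes passed. Cyp51 and Stard4 were also lost without a filter, with TMM factors, with library totals, with edgeR and with the mitochondrial covariate (adjusted p up to 0.12), and Insig1 with library totals.

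**Figure D3:**
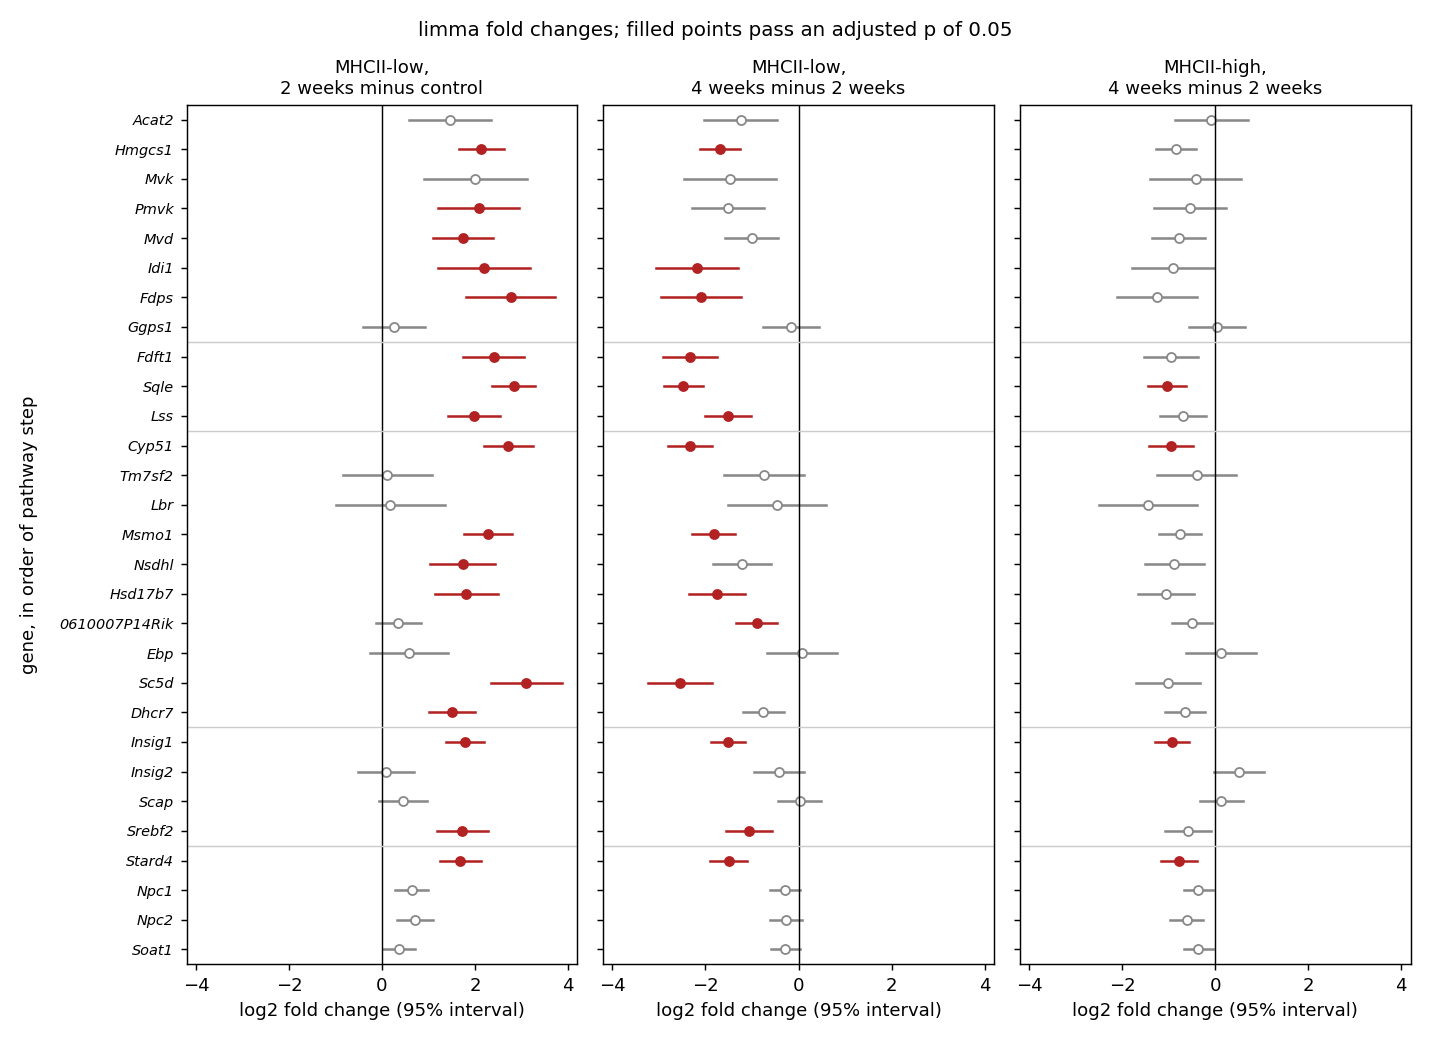
Log2 fold changes with 95% intervals (horizontal axis) of the 29 genes (vertical axis, by pathway step) in low cells at 2 weeks against control, low cells at 4 against 2 weeks and high cells at 4 against 2 weeks. Filled points passed an adjusted p of 0.05: 17 above 0 in the first comparison, 14 below 0 in the second and 4 below 0 in the third.

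High and low cells were compared at each time. At 2 weeks 0 of the 29 genes passed by limma, with 3 at an unadjusted p below 0.05 and 0 by edgeR or DESeq2, while 2.29% of all genes tested were higher and 0.581% lower in high cells. Still, 25 of the 29 differences were below 0, with a median of -0.25 against 0.08 over all genes. The 3 genes were Fdft1 (-0.75 ± 0.28, adjusted p = 0.18), Cyp51 (-0.54 ± 0.23, adjusted p = 0.24) and Insig1 (-0.37 ± 0.18, adjusted p = 0.31), in log2 fold change. For 9 genes, Mvk, Pmvk, Fdft1, Sqle, Cyp51, Dhcr7, Insig1, Insig2 and Scap, every high library was below every low library, as for 8.26% of all genes tested. Lbr had the opposite arrangement, as 12.9% of all genes did. Against the controls, which hold low cells only, every 2-week high library was above both controls for 22 of the 29 genes (16.7% of all genes tested) and below both for Insig2 (16.4%); no test was made, since both treatment and MHCII level differ.

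At 4 weeks Sqle, Msmo1, Sc5d and Cyp51 were higher in high than in low cells, 4 of 29 against 1.96% of all genes tested. Sqle was 2.06-fold higher (log2 1.04 ± 0.20, adjusted p = 0.0037), and it was called in each of the 6 refits that left out 1 library. Msmo1 was 1.97-fold higher (log2 0.97 ± 0.22, adjusted p = 0.017), Sc5d 2.44-fold (log2 1.29 ± 0.33, adjusted p = 0.04) and Cyp51 1.81-fold (log2 0.85 ± 0.23, adjusted p = 0.048). These 3 calls were lost without 4-week high replicate 2, 4-week low replicate 1 or 4-week low replicate 3, which left Sqle alone (adjusted p of the lost calls up to 0.23). In the other refits Sc5d was lost without 4-week high replicate 1, Msmo1 without 4-week high replicate 3 and Cyp51 without 4-week low replicate 2. Sqle alone passed without a filter or with library totals, and Sqle and Msmo1 with TMM factors or edgeR. With the mitochondrial ribosomal RNA share as a covariate Sqle alone passed, and that share was 3.12%, 23.15% and 5.1% in 4-week low and 8.12%, 28.99% and 21.13% in 4-week high cells. For 9 genes, Acat2, Hmgcs1, Idi1, Sqle, Cyp51, Msmo1, Sc5d, Insig2 and Stard4, every high library was above every low library, as for 8.26% of all genes tested. Among all genes tested 8.13% had every high library below every low library, and none of the 29 did. The median of the 29 was 0.44 against -0.03 over all genes. Every 4-week high library was above both controls for 15 genes, as for 11.8% of all genes tested, and below both for 0610007P14Rik (15%).

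Over the mean of both times 0 genes passed by limma, with 5 at an unadjusted p below 0.05, 0 by edgeR and 1 by DESeq2 (Msmo1, which limma also called without 2-week high or 4-week high replicate 1), while 5% of all genes tested were higher and 2.21% lower. The interaction, which asks whether the gap between high and low cells changed from 2 to 4 weeks (above 0 where it moved up), gave 0 calls by limma, where 0% of all genes tested passed, with 12 at an unadjusted p below 0.05, 0 by edgeR and 2 by DESeq2 (Sqle and Cyp51). Its median over the 29 genes was 0.71 against -0.07 over all genes, and 25 of the 29 values were above 0. Sqle had the smallest adjusted p (log2 1.44 ± 0.28, adjusted p = 0.12; 95% interval 0.86 to 2.02), followed by Cyp51 (log2 1.4 ± 0.32, adjusted p = 0.24; 0.73 to 2.06). Fdft1 passed (adjusted p = 0.035) when 4-week high replicate 3 was left out. For Sqle, Cyp51 and Insig2, 3 of the 29 genes, every high library was below every low library at 2 weeks and above every low library at 4 weeks, as for 0.092% of all genes tested; the reverse held for 0 of the 29 and 0.305% of all genes tested. With all libraries a change of the high-to-low order between the times was not shown for any single gene by limma.

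Markers of other cells and of alveolar macrophages moved with MHCII level and time. The summed level of the 8 markers of monocyte-derived or interstitial macrophages was 32260 to 42840 in 2-week high cells and 15480 to 16720 in 4-week high cells, against 3581 to 6137 and 1176 to 1721 in low cells at the same times. That of 8 alveolar type 2 cell markers was 11330 to 17290 and 9023 to 16070 in high cells, against 5674 to 7851 and 5802 to 9711 in low cells and 5321 and 5326 in the controls. None of these 16 markers was at 0 throughout a group. The 6 dendritic cell markers summed to 628 to 1070.0 and 904 to 1424 in high cells and 102 to 159 and 76.7 to 169.6 in low cells, with Cd209a at 0 throughout both low groups. The 5 B cell markers summed to 261 to 693 and 427 to 895 in high cells and to at most 60 in any low or control library. The 4 airway club cell markers summed to 25800 to 35950 in 4-week low cells and 2970 to 9697 in 2-week low cells, with 11910 and 24270 in the controls and 350.1 to 7763 and 4902 to 9108 in high cells, and Scgb3a1 was at 0 throughout 4-week high cells. The 10 alveolar macrophage markers summed to 239900 to 308700 and 252300 to 315400 in high cells at 2 and 4 weeks. In low cells they summed to 363000 to 439800 and 319400 to 381100. By limma 6 were lower in high cells at 2 weeks (0.581% of all genes tested) and 4 at 4 weeks (0.535%). At both times 0 were higher. Marco was lower at 2 weeks (log2 -1.91 ± 0.22, adjusted p = 1.4e-05) and at 4 weeks (log2 -1.19 ± 0.22, adjusted p = 0.0025). The part of any of these cells in the differences of the 29 genes was not tested.

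**Figure D4:**
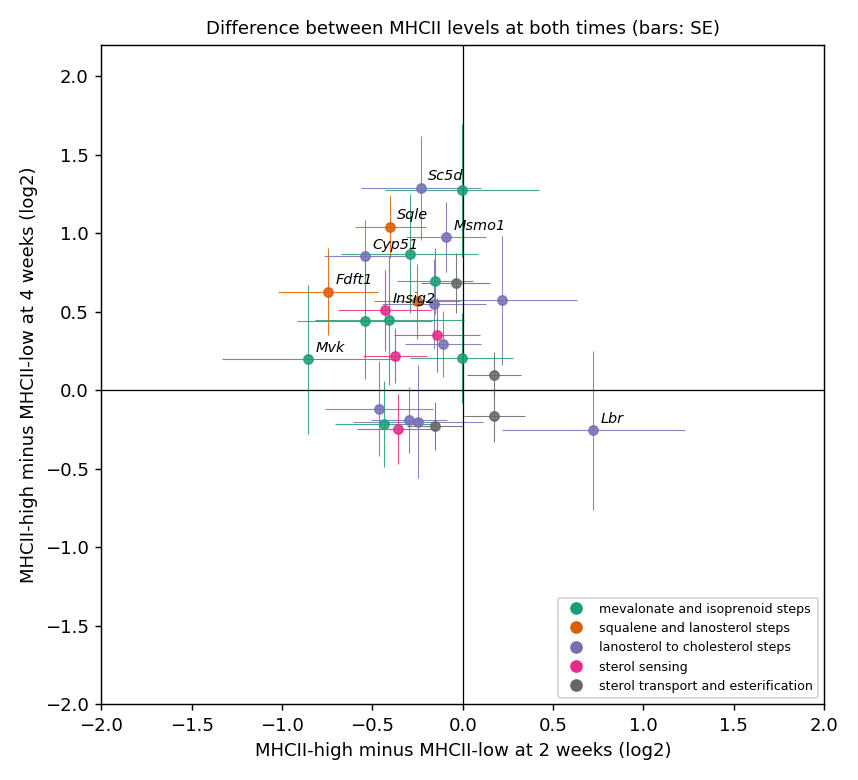
Log2 difference between high and low cells at 2 weeks (horizontal axis) and at 4 weeks (vertical axis) for each of the 29 genes (points), coloured by pathway step, with SE bars and lines at 0. At 2 weeks 25 points lie below 0 and at 4 weeks 21 lie above it, with Sqle, Msmo1, Sc5d and Cyp51 among the highest at 4 weeks.

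The genes also differed in how much they varied. Sc5d (14-fold), Fdps (9.55-fold), Sqle (9.44-fold) and Cyp51 (8.02-fold) had the widest ranges from the lowest to the highest library, and Soat1 (1.54-fold), Npc1 (1.76-fold) and Ggps1 (1.86-fold) the narrowest. The widest were enzymes of synthesis, and the narrowest an esterifying enzyme, a lysosomal carrier and a branch enzyme. Other genes of the synthesis steps had narrow ranges as well: 0610007P14Rik (2.41-fold), Ebp (2.71-fold) and Tm7sf2 (3.32-fold). Low counts can widen such a range, as may hold for Lbr (7.33-fold, with 45 reads in its lowest library). Replicates also differed together: replicate 3 was the highest of the 2-week low group for 22 of the 29 genes, and the library medians in that group were 1.39, 1.70 and 2.03 on the log2 scale over the control mean. In the other bleomycin groups the medians were 1.25, 1.43 and 1.63 in 2-week high, 0.28, 0.43 and 0.25 in 4-week low and 0.51, 0.80 and 0.60 in 4-week high cells. The medians of 4-week high and 4-week low libraries do not overlap, nor do those of the 2-week and 4-week libraries.

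Levels between genes were compared per kilobase of exon, in normalized counts per kilobase (mean ± SD over the libraries of a group, n = 2 for controls and n = 3 otherwise). In the controls Npc1 (1931 ± 199.9), Npc2 (1725 ± 24.4) and Soat1 (1549 ± 6.88) were the highest, and the SDs of Npc1 and Npc2 overlapped. Hmgcs1, the highest synthesis enzyme, was at 694 ± 38.3, and Idi1, the lowest of all, at 17.6 ± 0.827. At 2 weeks Hmgcs1 in low cells reached 3167 ± 979.7, within its SD of Npc1 at 2996 ± 148 and Npc2 at 2852 ± 498. Cyp51 reached 2177 ± 238 and Sqle 1729 ± 157. In 4-week low cells Hmgcs1 was at 967 ± 242 and Sqle at 313 ± 55.3, and the lysosomal and storage genes again led with 2478 ± 366 for Npc1 and 1639 ± 114 for Soat1.

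A further 34 genes of the pathway's surroundings (SREBP processing and enzyme degradation, lipoprotein uptake, intracellular sterol handling and isoprenoid use) were followed, and all were tested. In low cells at 2 weeks against control, 2 of the 34 rose and 1 fell, against 1.48% and 0.426% of all genes tested, with a median log2 fold change of 0.20 against -0.09 over all genes. Scarb1, a receptor for high-density lipoprotein, rose (log2 1.15 ± 0.23, adjusted p = 0.0075). Scarb1 read 2966 and 1752 normalized counts in the controls, 4224, 4882 and 6313 in 2-week low cells and 3659, 4084 and 4427 in 2-week high cells. At 4 weeks Scarb1 read 4044, 2824 and 3162 in low cells and 2974, 3116 and 2365 in high cells. Every 2-week low library of Scarb1 was above both controls. Ch25h, which makes 25-hydroxycholesterol, an oxysterol that blocks SREBP processing, rose as well (log2 1.37 ± 0.33, adjusted p = 0.029). Ch25h read 317 and 225 normalized counts in the controls, 682, 670.4 and 719.6 in 2-week low cells and 373, 358 and 277 in 2-week high cells. At 4 weeks Ch25h read 819, 397 and 700.5 in low cells and 522, 533 and 714 in high cells. Its 2-week low values were above both controls and above all 2-week high values.

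Mylip, a ubiquitin ligase that sends lipoprotein receptors to degradation, was the gene of the 34 that fell (log2 -1.4 ± 0.24, adjusted p = 0.0016). Mylip read 3578 and 3957 normalized counts in the controls, 1624, 1298 and 1362 in 2-week low cells and 1119, 682 and 1093 in 2-week high cells. At 4 weeks Mylip read 3471, 2731 and 2512 in low cells and 1904, 1789 and 1367 in high cells. Every 2-week low library was below both controls, and every 2-week high library was lower still. Mylip was higher in low cells at 4 than at 2 weeks (log2 1.02 ± 0.21, adjusted p = 0.018), the only one of the 34 called in that comparison, where 0.109% of all genes tested were higher. It was also lower in high than in low cells over the mean of both times (log2 -0.69 ± 0.15, adjusted p = 0.0059). Cyp27a1, the mitochondrial sterol 27-hydroxylase, was higher in high cells over the mean of both times (log2 0.90 ± 0.25, adjusted p = 0.033). These were the 1 lower and 1 higher of the 34 in that comparison, against 2.21% and 5% of all genes tested. In the other 5 comparisons 0 of the 34 genes passed by limma, with 2 to 8 at an unadjusted p below 0.05, while at most 1 passed by edgeR and at most 3 by DESeq2.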

How the data were processed

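RNA-seq values for 14 libraries were taken from 1 deposited table of 43432 mouse genes. Per the labels' protocols, mRNA was amplified to cDNA with the NuGen Ovation RNAseq kit and libraries were made with Nextera XT; amplified copies cannot be told from independent molecules. The submitters' processing notes name STAR, DESeq2 and the build mm10, without versions or settings; for the counting program, its strand setting and the annotation, no statement was found in the sources used here. Per the file headers, the deposited values are normalized counts, a signal made by the authors from gene counts by a scale factor per library. The deposited GC percent and exon length of each gene, given by the authors, were used for a GC trend and for levels per kilobase.

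The low values of every library came in whole steps, 1 step being what 1 read contributes (0.3895 to 2.2374 normalized counts), and 100% of those of up to 100 reads were whole within the rounding of 0.05; for control replicate 1, with the smallest step, that tolerance is loose. Dividing by the step gave recovered reads for edgeR and DESeq2, whose counts of calls are given beside or after the main ones.

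The 29 genes, the other lists and the naming rule were chosen with earlier results of these data known. A gene was tested if 2 or more libraries reached 10 normalized counts (17390 genes, all 29 among them). The log2 of the value plus 1 was fitted by limma 3.58.1 (R 4.3.3), with its mean-variance trend, over the 14 libraries together and with a mean for each group. There were 8 comparisons, each with Benjamini-Hochberg adjustment over all genes tested and a threshold of 0.05. Log2 fold changes are differences on that scale and are therefore too small for low genes, and the ± is the SE. Intervals of differences are 95%. The limma and edgeR fits were tested on simulated counts with known changes in 2-week low cells, for the comparison with the controls only. DESeq2 and the other comparisons were not tested in this way. Genes that passed in any comparison are given in every library, others by range; of other lists, at most 3 genes per comparison are named. Alternatives were pseudocounts of 0.5 and 5, no filter, a filter of 50 in 3 libraries, TMM factors, library totals, edgeR 4.0.16 with TMM and DESeq2 1.42.0 on recovered reads, the mitochondrial ribosomal RNA share as a covariate, a GC trend removed, a replicate block and leaving out each library. Overlaps and shared 50-base words come from the GENCODE annotation and transcripts of GRCm38, and promoters from RefSeq. Some genes of the pathway are not reported here.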

Additional observations from a re-analysis of the deposited data

Results flagged for a closer look

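For 3 genes every 2-week high library was below every 2-week low library and every 4-week high library was above every 4-week low library, as for 0.092% of all genes tested, and for 0 of the 29 genes was it the reverse, as for 0.305%. The difference between the times was tested by the limma interaction, and no gene passed. Sqle had a log2 interaction of 1.44 ± 0.28 (adjusted p = 0.12). Cyp51, the lanosterol demethylase, had 1.4 ± 0.32 (adjusted p = 0.24). Insig2, the retainer of SCAP, had 0.94 ± 0.37 (adjusted p = 0.73).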

How the results depend on the processing

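In 646 refits of the 39 single-gene calls, 561 kept the call, 85 lost it with the same direction and 0 reversed. The median log2 fold change of the 29 genes ran from 1.59 to 1.89 at 2 weeks against control in low cells and from -1.43 to -1.09 at 4 against 2 weeks; that of high against low cells over the mean of both times ran from -0.06 to 0.16, on either side of 0. Other settings gave 17 to 21 genes at 2 weeks against control in low cells and 11 to 19 at 4 against 2 weeks, with leave-one-out counts of 12 to 18 and 10 to 14. Counts of 4 were less stable. For high against low cells at 4 weeks 1 gene passed without a filter, 2 with TMM, 1 with library totals, 2 with edgeR, 7 with DESeq2, 1 with the mitochondrial covariate, and 1 to 5 with 1 library left out. For high cells at 4 against 2 weeks 2 passed without a filter, 2 with TMM, 1 with library totals, 2 with edgeR, 9 with DESeq2, 2 with the mitochondrial covariate, and 0 to 7 with 1 library left out. The cause was not tested. The mean of both times gave 1 with DESeq2 and the interaction 2 (leave-one-out 0 to 1 for both), while low cells at 4 weeks against control and high against low cells at 2 weeks gave 0 to 0.

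Library totals moved the median of all genes from -0.03 to -0.18 (log2) for high against low cells at 4 weeks and from 0.03 to 0.18 for low cells at 4 against 2 weeks. Same-numbered high and low libraries had correlated deviations of 0.107, 0.068 and 0.025 at 2 weeks and 0.009, 0.034 and 0.015 at 4 weeks (6 of 6 above 0 and 1 of 6 above 0.1). Of the 6 high libraries 4 correlated best with the low library of their own number, and the labels do not say that a number marks a shared mouse, so the libraries were not taken as paired. A replicate block was also fitted, in a form that differed by comparison. For high against low cells and the interaction it had a mean for each time and replicate number. In the other comparisons it added effects of the number shared by all groups, though no label ties numbers across them. The block gave 19 genes at 2 weeks against control, 15 for low cells at 4 against 2 weeks, 5 for high against low cells at 4 weeks, 5 for high cells at 4 against 2 weeks and 0 otherwise. The number of controls (2) limits the comparisons with them. Lbr, Mvk, Idi1, Fdps and Pmvk, with under 100 reads in at least 1 library, carry more counting error there.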

Other observations

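The summed level of 6 cell cycle genes (Mki67, Top2a, Kif11, Ccnb1, Cdk1 and Mcm5) was 14780 and 16510 normalized counts in the controls, 7088 to 10150 in 2-week low cells, 8066 to 15580 in 2-week high cells, 6102 to 8320 in 4-week low cells and 4760 to 10540 in 4-week high cells. The control sums were thus above those of every low library after bleomycin.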
